A study of Mus musculus with 10 samples.

Results

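The genes described here encode the kainate-type glutamate receptors and their nearest relatives: the subunit genes Grik1, Grik2, Grik3, Grik4 and Grik5 (proteins GluK1 to GluK5), the auxiliary protein genes Neto1 and Neto2, and the delta receptor gene Grid1. They were chosen by symbol, as members of one receptor family, and make up 8 of the 32531 genes listed in each count file. Reads were counted in 10 libraries of whole striatum. The adult mice were Drd2-EGFP/Rpl10a, the Drd2-TRAP line CP101, and had short access to intravenous self-administration. Every animal of the line carries the transgene, in which the large-subunit ribosomal protein L10a is fused to EGFP and driven from the Drd2 gene, so antibodies to EGFP pull down ribosomes, with their RNA, from cells that use it. The immunopurified (IP) groups were 3 libraries after saline (numbers 1, 2 and 4) and 5 after cocaine (numbers 1 to 5). There was 1 further library of input RNA after saline and 1 of unbound RNA, the part the antibodies left behind, after cocaine. Drd2 is used by indirect-pathway medium spiny neurons (MSNs) and also by cholinergic interneurons, so the tag marks more than one cell type. Whether a library came from its own animal or from a pool is not in the labels, so p-values here cover only the spread from library to library, which may be technical.

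Kainate receptors are glutamate-gated cation channels. GluK1, GluK2 and GluK3 can form channels by themselves, whereas GluK4 and GluK5 bind glutamate with high affinity but reach the surface as working channels only together with one of the former. Neto1 and Neto2 are single-pass membrane proteins with CUB domains that sit beside the channel and slow its desensitization. The delta receptor GluD1, the product of Grid1, resembles these subunits but acts mainly as an adhesion protein, bound through secreted cerebellins to neurexins on the opposite side of a synapse. In the striatum, kainate receptors are known from the spiny neurons and from the glutamatergic axons that reach them.

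Each IP library held 22975667 to 31631137 reads on genes, and the input and unbound libraries held 18408782 and 20882691. A level of 3 reads equals 0.0948 to 0.131 CPM, the read count scaled to a library's total of gene reads, in the IP libraries. Libraries of a group differed by well more than sampling noise, with a chi-square of at least 20.2 per degree of freedom for each pair. The pulldown was checked on genes of known cell type. Drd2 stood above the input by 2.76 ± 0.14 on the log2 scale (SD, n = 3) and above the unbound RNA by 2.51 ± 0.26 (SD, n = 5). Adora2a, the adenosine receptor of indirect-pathway neurons, stood above them by 2.84 ± 0.36 and 3.12 ± 0.27. Drd1, the dopamine receptor of direct-pathway neurons, lay at -3.29 ± 0.22 and -2.71 ± 0.33. All 5 markers of the indirect pathway passed 2-fold upward in each IP library against its reference. All 6 markers each of pallial glutamatergic neurons, astrocytes and oligodendrocytes were at least 2-fold lower, as were 6 of 6 and then 5 of 6 direct-pathway markers. Of all genes, 11.8% were lower against the input and 9.85% against the unbound RNA. None of the 4 cholinergic markers measured was called in either direction, and their medians were -0.95 and -0.41. The label of medium spiny neurons therefore holds for the IP libraries by their indirect-pathway markers. The same label on the input and unbound libraries covers RNA with markers of many striatal cells. Of these, the unbound RNA is what the pulldown left behind and not the whole.

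Levels were compared between genes per kilobase of exon (GENCODE annotation of GRCm38), since a longer transcript yields more reads. The length joined all annotated exons of a gene: 13.2 kb for Grik2, 8.97 for Grik3 and 5.17 for Grik5. The transcripts present may be shorter, so the order of genes depends on this choice. In plain CPM the saline IP means were 63.7 for Grik2, 60.2 for Grik5 and 29.8 for Grid1. Neto1 and Neto2 were the most abundant members in the saline IP libraries, at 58.8 and 45.4 CPM per kb, and their ranges overlapped. Grik3 followed at 24.8 CPM per kb, below both Neto genes and above every other member with no overlap. Grik5 lay at 11.6, Grid1 at 5.003 and Grik2 at 4.81 CPM per kb, and in this run each overlapped its neighbour. Grik4 (0.174 CPM per kb) and Grik1 (0.0488 CPM per kb) came last, overlapped each other, and lay apart from all the others. The cocaine IP libraries gave the same order but for Grik2 (5.14) and Grid1 (5.09 CPM per kb), which overlapped in both groups. There Neto1 stood at 58.4, Neto2 at 53.1, Grik3 at 23.9, Grik5 at 10.8, Grik4 at 0.0999 and Grik1 at 0.0431 CPM per kb, and Grik5 did not overlap its neighbours.

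Grik3 had the highest ratio of captured to reference RNA among the members. Its gene lies on chromosome 4 (GRCm38, 125490700 to 125714173). It encodes GluK3, a subunit that forms channels needing high glutamate to open. Grik2, on chromosome 10 (49094833 to 49788766), encodes the closely related GluK2 and lay lower against the input. The stretches just before these 2 start sites are shown because their genes, which code for like proteins, differed most plainly in ratio among the well-detected subunits; they come from the RefSeq promoter table for GRCm38.p6, with GC boxes (GGGCGG on either strand) in capitals. The Grik3 stretch is chr4:125490446-125490695 on the plus strand and the Grik2 stretch is chr10:49788767-49789004 on the minus strand, both written 5′ to 3′.
Grik3: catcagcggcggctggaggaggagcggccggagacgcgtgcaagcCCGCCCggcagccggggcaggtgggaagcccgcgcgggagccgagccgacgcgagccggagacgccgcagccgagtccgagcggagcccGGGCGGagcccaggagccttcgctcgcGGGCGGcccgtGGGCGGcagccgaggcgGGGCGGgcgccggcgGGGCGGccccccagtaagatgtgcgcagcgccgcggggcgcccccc
Grik2: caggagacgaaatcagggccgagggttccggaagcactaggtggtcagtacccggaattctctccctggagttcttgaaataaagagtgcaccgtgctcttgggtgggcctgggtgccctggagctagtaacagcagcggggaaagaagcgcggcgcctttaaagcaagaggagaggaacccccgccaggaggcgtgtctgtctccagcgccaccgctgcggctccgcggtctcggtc

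The 250 bases before the Grik3 start held 6 GC boxes and 82.0% G and C, against a median of 52.4% over 32851 promoters of that length, of which 32.7% held at least 1 GC box. The 250 bases before the Grik2 start, which run 12 bases past the stretch shown, held none and had 62.8% G and C. Neither window held a cAMP response element (TGACGTCA, found in 1.5% of promoters), an AP-1 site (TGANTCA, 6.7%) or the TATA box letters TATAAA (12.4%), all searched on both strands. Overlapping matches were counted apart. The table had windows for 5 of the 8 members: Grik4 held 1 GC box, Grik5 held 2, and the 2 Neto2 windows held 2 and 0. Of the 250 Grik4 bases, 122 lie in GENCODE exons of the gene. For Grik4 and Grik5 the bases after the start were not found in a GENCODE transcript, so these starts were not matched to that annotation. All the counts are matches of letters in a window, with no measure of binding.

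The saline IP libraries numbered 1, 2 and 4 held Grik3 at 175, 249.8 and 243 CPM, and the input at 64.3 CPM. The cocaine IP libraries numbered 1 to 5 held it at 139, 231, 271, 217 and 212 CPM, and the unbound RNA at 54.8 CPM. Every IP library lay above both reference libraries, and library 1 was the lowest of each treatment. As a log2 ratio of CPM plus 1, Grik3 stood 1.76 ± 0.29 above the input (SD, n = 3) and 1.91 ± 0.35 above the unbound RNA (SD, n = 5). A gene was called higher or lower where every IP library passed 2-fold, among genes averaging 1 CPM or more over the libraries compared. Grik3 was the only one of the 8 members called higher against the input, where 1.45% of 12894 genes were, and the only one of 7 measured against the unbound RNA, where 3.73% of 12655 genes were. These shares depend on the setting: the 187 genes called higher against the input became 338 without saline IP 1, 711 with the unbound RNA as reference, 107 with 5 CPM added and 70 with libraries scaled by size alone. The 472 against the unbound RNA became 137 with the input as reference, 293 with 5 CPM added and 247 with size alone. By mean ratio, 19 genes stood above it in the first comparison and 43 in the second. With 1 input and 1 unbound library, these ratios carry the spread of the IP side only and no test. In RNA from a whole tissue, a lower level cannot tell fewer cells of a type from less RNA in each cell.

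Grik2 took the other direction against the input. The saline IP libraries held 56.5, 76.7 and 58.0 CPM, all below the input at 113 CPM. The cocaine IP libraries held 43.7, 69.1, 82.3, 72.8 and 72.2 CPM, on both sides of the unbound RNA at 74.5 CPM. The log2 ratio was -0.84 ± 0.24 (SD, n = 3) against the input and -0.16 ± 0.35 (SD, n = 5) against the unbound RNA, and Grik2 was called in neither. The 2 references themselves differed here. Set against the reference of the other treatment, the saline ratio was -0.24 and the cocaine ratio was -0.76, so the smaller and larger values went with the reference library used. The 2 references differ in both treatment and fraction, which cannot be told apart here.

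Grik1 was close to the limit of detection in the captured RNA. GluK1, its product, is known from interneurons in many brain regions; the gene lies on chromosome 16 (87895900 to 88290265). It drew 7, 1 and 19 reads in the saline IP libraries and 8, 10, 5, 3 and 12 in the cocaine IP libraries, against 76 in the input and 117 in the unbound RNA. In CPM these were 0.222, 0.0358 and 0.726, then 0.249, 0.377, 0.165, 0.121 and 0.535, against 3.68 and 5.05, so every IP library lay below both references. With reads pooled over each group, the input held 11.7 times the level of the saline IP (95% interval 7.43 to 18.8) and the unbound RNA 18.1 times that of the cocaine IP (95% interval 12.4 to 26.8). These intervals are exact, cover counting error only, and leave out the spread between libraries. Grik1 was called lower in both comparisons, with log2 ratios of CPM plus 1 of -1.85 ± 0.38 and -2.24 ± 0.18 that the added 1 CPM makes small. It was the only member called lower, beside 11.8% of genes against the input and 9.85% against the unbound RNA. Since Grik1 passed the limit of 1 CPM on the reference library alone, it had to differ, and the call is given as a description.

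Grik4 and Grik5 encode the high-affinity subunits, and their levels lay far apart. Grik4, on chromosome 9 (42518135 to 42944493), drew 32, 16 and 40 reads in the saline IP libraries and 12, 22, 14, 17 and 14 in the cocaine IP libraries, against 71 in the input and 47 in the unbound RNA. Its CPM were 1.01, 0.572 and 1.53, then 0.374, 0.830, 0.462, 0.686 and 0.624, against 3.43 and 2.03. Every IP library was below both references. The pooled level was 3.34 times higher in the input than in the saline IP (95% interval 2.41 to 4.62), and 3.49 times higher in the unbound RNA than in the cocaine IP (95% interval 2.38 to 5.08). Its log2 ratio to the input, -1.15 ± 0.34, was not called, because saline IP 4 lay at -0.81, and its mean over the cocaine libraries was under 1 CPM. Its saline IP mean, 1.04 CPM, passed that limit without the input.

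Grik5, on chromosome 7 (25009849 to 25072346), encodes GluK5, the usual high-affinity partner in brain receptors. It was well detected and uneven, at 30.5, 86.7 and 63.3 CPM in the saline IP libraries. The cocaine IP libraries held 40.2, 68.1, 66.9, 55.1 and 47.7 CPM, and the input and unbound RNA held 41.4 and 31.2 CPM. Saline IP 1 and cocaine IP 1 lay below the input level, and only saline IP 1 was below the unbound RNA. The log2 ratios were 0.41 ± 0.76 (SD, n = 3) and 0.79 ± 0.32 (SD, n = 5), not called, and the first is smaller than its own spread.

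Among the auxiliary genes, Neto1 was the steadiest member. Its gene lies on chromosome 18 (86394952 to 86506718). The saline IP libraries held 544, 481 and 449 CPM and the cocaine IP libraries 444, 529, 492, 456 and 518 CPM, while the input held 346 and the unbound RNA 448 CPM. All 8 IP libraries lay above the input, and 7 lay above the unbound RNA. The log2 ratio was 0.50 ± 0.14 to the input and 0.12 ± 0.11 to the unbound RNA, and with the references exchanged it was 0.13 for saline and 0.49 for cocaine. The second ratio turned to -0.07 when libraries were scaled by their size alone. Exons of Neto1 share 219 bases with an antisense gene model, and the strand setting of the counts is not given in the sources used here, so reads of that model may be included.

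Neto2, on chromosome 8 (85636588 to 85700924), varied more. It stood at 246, 338 and 251 CPM in the saline IP libraries and at 198, 409, 381, 291 and 349 CPM in the cocaine IP libraries. The input and unbound libraries held nearly equal levels, 233 and 235 CPM. Cocaine IP 1 was the only IP library below them. Its log2 ratios, 0.24 ± 0.26 (SD, n = 3) and 0.43 ± 0.42 (SD, n = 5), were about the size of their spread and were not called.

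Grid1, on chromosome 14 (34820108 to 35583379), came nearest to Grik3 in the cocaine comparison. Saline IP libraries held 16.9, 38.6 and 34.0 CPM against 18.4 CPM in the input. Cocaine IP libraries held 18.4, 35.6, 35.8, 32.7 and 29.3 CPM against 11.9 CPM in the unbound RNA. Saline IP 1 lay slightly below the input level and cocaine IP 1 was level with it, while all the other IP libraries lay above both references. The log2 ratio was 0.59 ± 0.62 to the input and 1.24 ± 0.38 to the unbound RNA. The second missed the 2-fold call through cocaine IP 1, at 0.59, and without that library Grid1 was called higher at a mean of 1.41. Against the input, the cocaine ratio was 0.65, and against the unbound RNA, the saline ratio was 1.18.

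**Figure D1:**
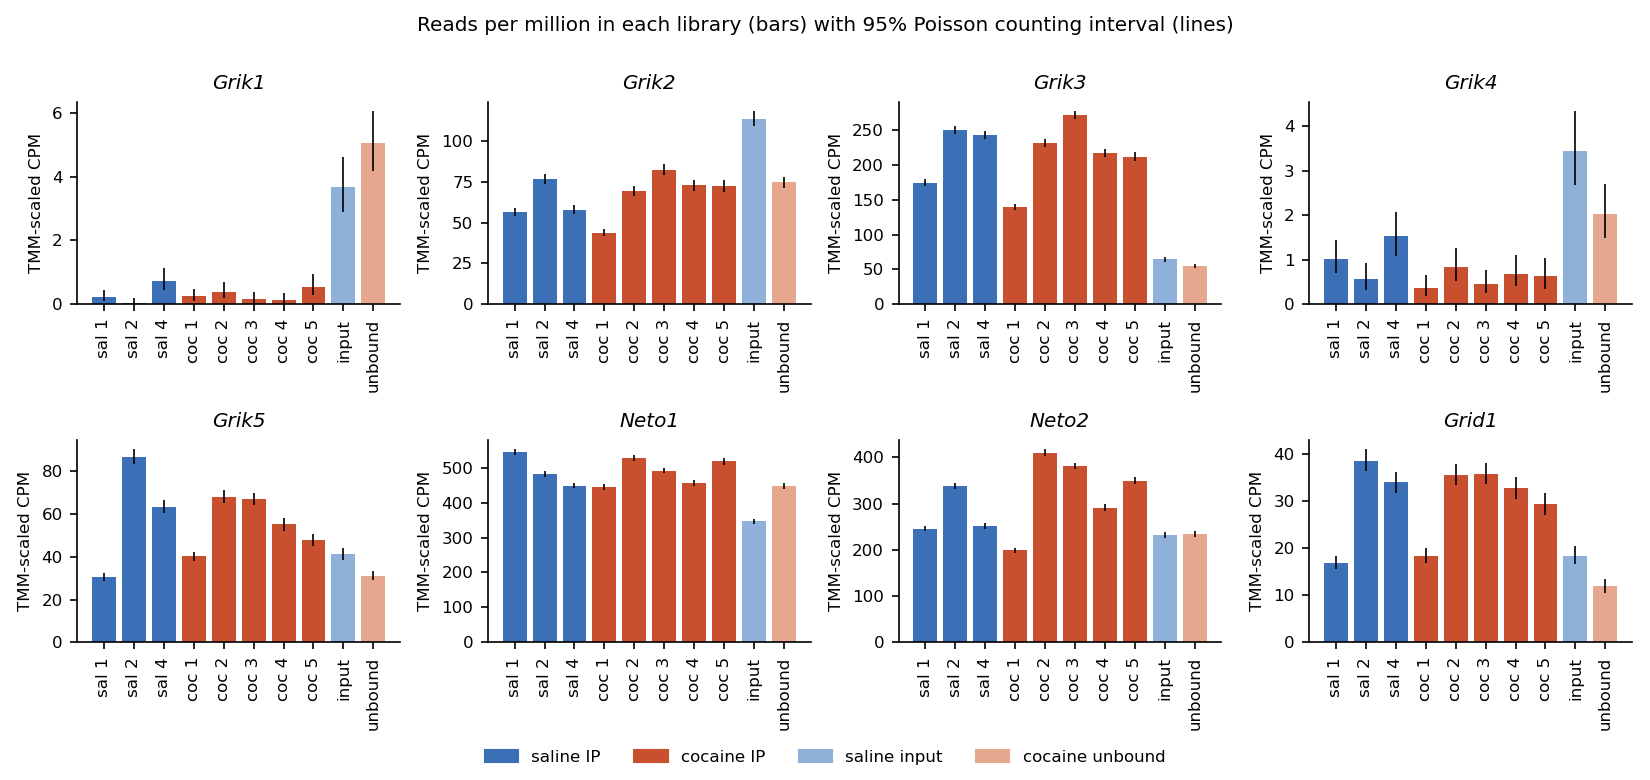
TMM-scaled CPM of the 8 members, 1 panel for each gene on its own axis from 0; each bar is 1 library (sal, saline IP; coc, cocaine IP; with the library number) and the lines are 95% Poisson intervals, which cover counting error only. Every IP bar lies above the input and unbound bars for Grik3 and below both for Grik1 and Grik4, and libraries numbered 1 are the lowest IP bars of their treatment for Grik2, Grik3, Grik5, Neto2 and Grid1.

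Over the 8 members the median log2 ratio to the input was 0.32, against 0.10 over all genes, and over the 7 measured against the unbound RNA it was 0.43, against 0.16. Scaling by library size alone put the medians of all genes at -0.09 and -0.01. It also moved the share of higher genes among those called from 27.5% to 14.3% against the unbound RNA, while the call of Grik3 stood. The call of Grik1 stood as well, but that gene passed the limit through its references and had to be lower.

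**Figure D2:**
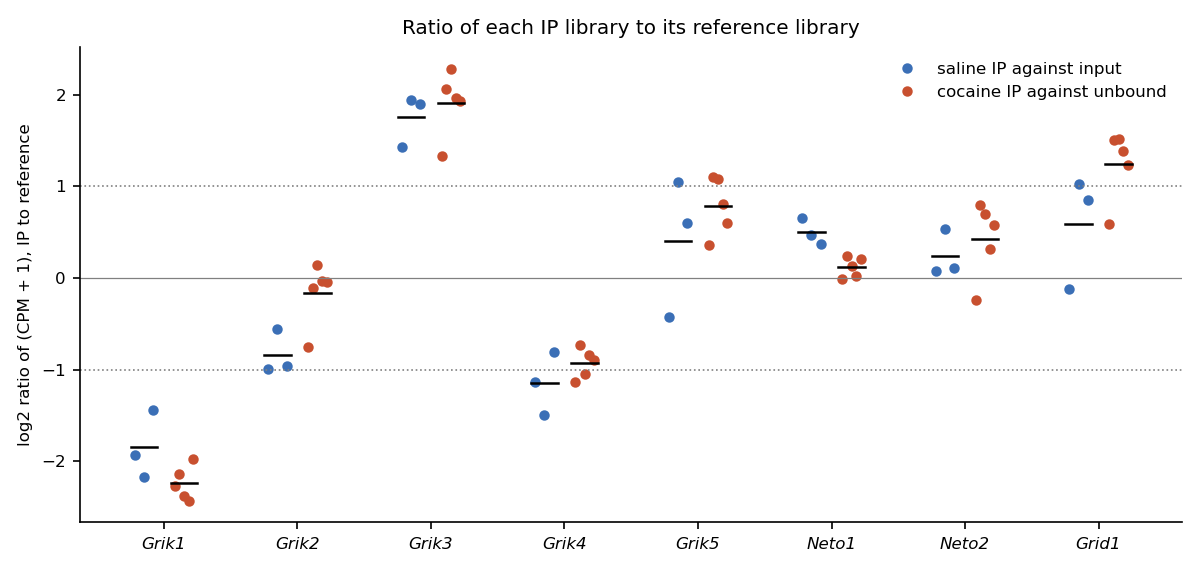
Log2 ratio of CPM plus 1 of each IP library to its reference library for the 8 members; points are libraries, black bars are group means, and dotted lines mark 2-fold in each direction. Grik3 is the only member with all libraries above the upper line in both comparisons and Grik1 the only one with all below the lower line in both.

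The make-up of the kainate subunit RNA followed from these levels. Grik3 held 55.1% to 65.2% of the summed subunit CPM per kb in the saline IP libraries and 58.1% to 61.4% in the cocaine IP libraries, against 28.8% in the input and 32.4% in the unbound RNA. Grik2 held 9.94% to 14.3% and 11.8% to 14.2%, against 34.4% and 29.8%. Per kb, Grik3 thus stood at 4.56 to 6.18 times Grik2 in the saline IP and at 4.33 to 4.94 times in the cocaine IP. The input gave 0.837 and the unbound RNA 1.09. The size of these shares and ratios depends on the exon lengths used. In plain CPM the saline IP means were 222 for Grik3 and 63.7 for Grik2, and the input held 64.3 and 113. The share of Grik5 was 19.8% to 33.2% in the saline IP, a range that spans the references at 32.2% and 32.0%. In the cocaine IP it was 24.0% to 29.7%, below both. Grik1 held 0.0105% to 0.245% and 0.0445% to 0.207%, against 2.20% and 3.98%. Grik4 held 0.190% to 0.582% and 0.157% to 0.314%, against 2.32% and 1.80%. Shares of a sum are tied to one another, so the higher share of Grik3 lowers all the others.

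The share of Grik3 was steadier between libraries than the level behind it. The summed subunit level ran from 29.8 to 50.5 CPM per kb over the saline IP libraries and from 26.7 to 49.5 over the cocaine IP libraries. The Neto genes together held 2.15 to 3.53 times that sum in the saline IP and 2.45 to 3.21 times in the cocaine IP, 3.19 times in the input and 4.87 times in the unbound RNA. Neto2 to Neto1 was 0.615 to 0.959 and 0.609 to 1.05, on either side of both references at 0.916 and 0.713.

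**Figure D3:**
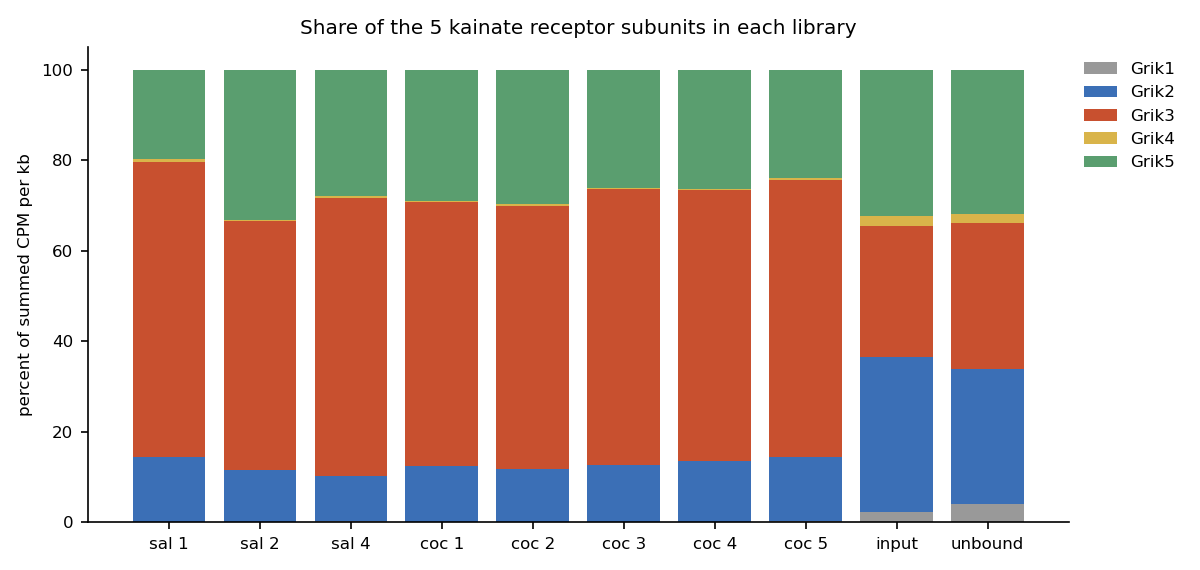
Share of each subunit gene in the summed kainate subunit CPM per kb, stacked to 100% in 1 bar for each library (sal, saline IP; coc, cocaine IP). The Grik3 part runs from 55.1% to 65.2% in the IP libraries and is 28.8% in the input and 32.4% in the unbound RNA, where Grik2 and Grik5 each take about as much.

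Cocaine against saline was tested over the 8 IP libraries with edgeR's quasi-likelihood test and Benjamini-Hochberg adjustment over 13800 genes. No gene passed an adjusted p of 0.05 (0% called). At an unadjusted p of 0.05, 295 genes (2.14%) passed by edgeR and 363 by DESeq2, which also called 0 genes after adjustment. All 8 members were tested, 0 passed at either level, and their adjusted p rounded to 1.0. For none of the 8 did the saline and cocaine libraries fail to overlap, where 1.05% of all genes lay higher and 1.32% lower without overlap. The median log2 difference of the members was -0.02, against 0.01 over all genes.

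Intervals show how large a difference these libraries leave possible. For Neto1 the log2 difference, cocaine minus saline, was -0.0009 (SE 0.11), with a 95% interval from -0.24 to 0.24, the tightest of the members. Grik2 differed by 0.10 (SE 0.18), from -0.29 to 0.50. Grik3 differed by -0.04 (SE 0.19), from -0.45 to 0.36, on means of 222 ± 41.5 CPM (SD, n = 3) after saline and 214 ± 47.8 CPM (SD, n = 5) after cocaine. The well-detected members Grik5, Grid1 and Neto2 had wider limits. Grik5 lay at -0.10 (SE 0.27), from -0.69 to 0.50, Grid1 at 0.04 (SE 0.26), from -0.52 to 0.60, and Neto2 at 0.24 (SE 0.20), from -0.21 to 0.68. Changes of 2-fold or more lay outside the intervals of these 6 genes in this fit, which has no term for lane. With lane as a covariate the SE was larger for each of the 6, from 0.19 for Neto1 to 0.51 for Grik5. Intervals there are wider, and this limit is not claimed for them.

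For the scarce pair the limits were wide. Grik1 differed by -0.17 (SE 0.76), and its interval from -1.82 to 1.48 covers more than 2-fold in both directions. Grik4 had the largest value, -0.80 (SE 0.41), with an interval from -1.70 to 0.09 and an unadjusted edgeR p of 0.0747. Its means were 1.04 ± 0.478 CPM (SD, n = 3) after saline and 0.595 ± 0.181 CPM (SD, n = 5) after cocaine. Saline IP 2, at 0.572 CPM, lay inside the cocaine range, and the value rests on 12 to 40 reads in each library.

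The numbers 1, 2 and 4 occur in both treatments, and whether they mark pairs is not known. Grik3 was lower after cocaine in each of these pairs, from 175 to 139, from 249.8 to 231 and from 243 to 217 CPM, or by -0.32, -0.11 and -0.16 on the log2 scale. No other member kept one sign, and of all 13800 genes 2149 were lower and 1663 higher in all 3 pairs. With the number as a block, Grik3 differed by -0.19 (SE 0.08), with an unadjusted edgeR p of 0.0325 and an adjusted p of 0.747, and it was the only member of 7 tested under an unadjusted 0.05. That fit put 903 of 13580 genes (6.65%) under 0.05 unadjusted and 0 after adjustment, and the same 6 libraries without the block 141.

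Lane nearly followed treatment. Saline IP 1 and 2 ran on lane 7, saline IP 4 with cocaine IP 1 and 2 on lane 6, the other cocaine IP libraries on lane 4, and both references on lane 1. Lane 6 was the only one with both treatments, and within it the log2 differences were -1.34 for Grik4, -1.21 for Grik1, -0.37 for Grik3, -0.32 for Grid1, -0.21 for Grik5, -0.03 for Grik2, 0.13 for Neto1 and 0.29 for Neto2. None was called there by edgeR, with 1 saline library taken to vary like the cocaine ones, and 126 genes passed an unadjusted p of 0.05. Since the references ran on a lane of their own, lane and fraction cannot be told apart in the ratios.

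**Figure D4:**
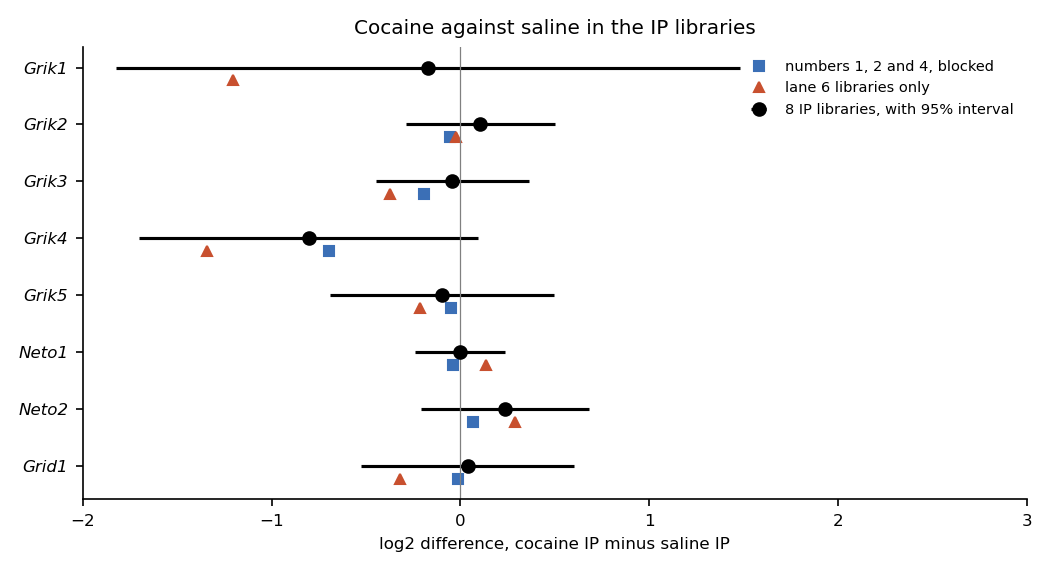
Log2 difference, cocaine IP minus saline IP, of each member from the edgeR fit of the 8 IP libraries (black points, with 95% intervals), from libraries 1, 2 and 4 with the number as a block (blue squares, not fitted for Grik1) and from the 3 libraries of lane 6 (orange triangles). All 8 intervals include 0, and those of Grik1 and Grik4 are the widest.

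The 2 libraries numbered 1 often lay at one end of their treatment. They were the lowest for 5 of the 8 members (Grik2, Grik3, Grik5, Neto2 and Grid1), where 19.3% of 13800 genes were. They were the highest for 0 of 8, where 12.9% were. After saline the margin was small for Grik2 (56.5 CPM against 58.0 in saline IP 4) and Neto2 (246 against 251 CPM). For these genes saline IP 2 stood apart, at 76.7 and 338 CPM. Of the other ionotropic glutamate receptors, 7 of 9 AMPA and NMDA subunit genes tested were lowest in the libraries numbered 1. These were Gria1 to Gria4, Grin1, Grin2a and Grin2b, while Grin2c was highest. Markers of some other cells moved with this. All 6 oligodendrocyte markers were highest in the libraries numbered 1, summing to 441 CPM against 207 and 332 in the other saline IP libraries, and to 407 against 211 to 283 in the other cocaine IP libraries. The 5 cholinergic markers summed to 29.9 against 16.7 and 20.4 CPM, and to 40.4 against 16.6 to 23.9 CPM, with Chat, Slc5a7 and Lhx8 highest in both. The 5 indirect-pathway markers summed to 7883 against 10320.5 and 12482 CPM, and to 6829 against 9727 to 12859 CPM. That sum is mostly Penk, at 4545 against 7083 and 8367 CPM and at 3926 against 7057 to 9165 CPM. Penk and Gpr6 were lowest there in both treatments, and the other 3, Drd2 among them, were not. Highest in both were 2 of 6 astrocyte, 1 of 6 GABA interneuron, 1 of 3 oligodendrocyte precursor, 2 of 6 direct-pathway, 1 of 2 endothelial and mural, 2 of 2 ependymal and choroid plexus, 0 of 5 microglial and 0 of 6 pallial markers. The part of these other cells in the member levels was not tested. With both libraries numbered 1 left out, an alternative chosen after the data were seen, the cocaine difference was -0.08 for Grik3 and -0.33 for Grik5 (unadjusted edgeR p 0.0707), still with 0 genes called and 385 unadjusted.

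As a description over the 8 IP libraries, Grid1 ran most closely with Grik5 (Pearson r 0.941 on log2 CPM plus 1) and Grik3 (0.909), Neto2 with Grik2 (0.885), and Grik3 with Grik2 (0.864). Neto1 stood aside, with r from -0.24 to 0.50 to the other members. The points share the libraries numbered 1 as the low end for these members.

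Several proteins that meet these receptors outside the cell were lower in the captured RNA. Of 8 listed (cerebellins, C1q-like proteins and neurexins), 6 were measured in each ratio, 4 of them called lower and 0 higher, with medians of -1.95 and -1.48. The other 2 had mean ratios above 0 in each. Of all genes, 11.8% and 9.85% were called lower. C1ql3, which links GluK2 and GluK4 receptors to neurexins, lay at -2.64 ± 0.55 against the input and -3.12 ± 0.33 against the unbound RNA. Cbln2 and Cbln4, secreted cerebellins, lay at -1.96 ± 0.06 and -2.80 ± 0.80 against the input, and at -1.53 ± 0.35 and -1.43 ± 0.23 against the unbound RNA. Of these, C1ql3 and Cbln2 had IP means under 1 CPM, so their references carried them past the limit.

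Inside the cell, 14 of 14 listed scaffold, trafficking and modifying proteins were measured, with medians of 0.09 and 0.07. None was called against the input, and 1 was called higher against the unbound RNA. Of 3 editing enzymes, which recode GluK1 and GluK2 transcripts, Adarb2, a member without known editing activity, was called lower in both, at -1.75 ± 0.66 and -3.28 ± 0.51. Of 10 AMPA and NMDA subunits, 9 were measured, 0 were higher and 2 lower in each comparison: Grin2c at -2.22 ± 0.30 and -1.66 ± 0.21, and Grin3a at -2.14 ± 0.74 and -1.67 ± 0.31. Grin2c had IP means under 1 CPM and passed the limit through its references, so it had to be lower. Their list medians were 0.02 and 0.40, and those of the editing enzymes 0.11 and -0.44. Of all genes, 1.45% and 3.73% were called higher and 11.8% and 9.85% lower. The 0 of 9 AMPA and NMDA subunits called higher are close to that share and set no contrast with Grik3, which was not tested.

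After cocaine, edgeR called 0 genes of these 4 lists. The median log2 differences were 0.16 for 7 outside partners, 0.01 for 14 inside partners, -0.11 for 3 editing enzymes and 0.13 for 9 AMPA and NMDA subunits, and 1 gene, of the inside partners, had an unadjusted p under 0.05. Values with the largest size were Cbln2 at 0.44 (SE 0.52) and Cbln1 at 0.34 (SE 0.52), Klhl17 at -0.36 (SE 0.18) and Klhl24 at 0.30 (SE 0.12), Adarb2 at -0.84 (SE 0.50) and Adar at -0.11 (SE 0.13), and Gria2 at 0.33 (SE 0.22) and Gria4 at 0.31 (SE 0.17). KLHL17 is an adaptor that marks GluK2 for degradation through cullin 3.

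The genes most like each member were sought by Pearson r of log2 CPM plus 1 over all 10 libraries, among 9356 genes averaging 5 CPM or more. For Grik3 these were Plxdc1 (0.992) and Ptprm (0.989). Plxdc1 ran from 8.61 to 20.3 CPM in the IP libraries against 3.63 in the input and 3.54 in the unbound RNA, and Ptprm from 46.9 to 75.8 against 19.5 and 15.5 CPM. For Grid1 they were Stim2 and Lppr1 (both 0.987), and for Grik5 Atp6v0c (0.983) and Fam189a1 (0.971). Grik1 was nearest to Lpar1 and Olfm1 (both 0.991), of which Lpar1, a lysophosphatidic acid receptor, held 1.29 to 4.77 CPM in the IP libraries against 35.5 in the input and 42.2 in the unbound RNA. Grik2 was nearest to Lamp1 (0.971) and Cnnm3 (0.955), Grik4 to Zfp955a (0.974) and Dgkz (0.959), Neto1 to Epc2 (0.956) and Usp21 (0.953), and Neto2 to Ptpra (0.963) and Slc22a23 (0.959). These values mix the contrast of IP with reference libraries and the spread among IP libraries, and carry no test.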

How the data were processed

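RNA-seq read counts per gene symbol were deposited by the authors as 1 file for each library, not normalized. Per the submitters' processing notes, STAR 2.0.0e, HTSeq and build mm10 were used; the HTSeq version, annotation and strand setting were not given in the sources used here. Special counters, which name no gene, stayed out of library sizes and tests. Reads in no feature came to 12.9% to 14.4% of gene, no-feature and ambiguous reads in the IP libraries and to 25.5% and 27.4% in the references.

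CPM were scaled with TMM factors over the 10 libraries (edgeR 4.0.16, R 4.3.3). Ratios used log2(CPM + 1), which understates changes of low genes, for genes averaging 1 CPM or more. Cocaine was tested against saline on counts of the 8 IP libraries with edgeR's two-sided quasi-likelihood test, no term but treatment, genes kept by filterByExpr, and a Benjamini-Hochberg threshold of 0.05; the fit was tested on simulated counts. DESeq2 1.42.0, library-size scaling, other filters, added values of 0.1 and 5 CPM, the other reference, lane, leaving out libraries and a block by number were alternatives. The common biological coefficient of variation was 0.199.

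What a library's number marks is not in the labels. Deviations of same-numbered libraries from their group means correlated at 0.709, 0.628 and 0.321 over 9618 genes averaging 5 CPM or more. Over 12154 averaging 1 CPM or more they correlated at 0.667, 0.558 and 0.268. Libraries of different numbers were not compared, so these values cannot show that the numbers pair the libraries. The block took the numbers as pairs without such evidence.

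Exon lengths, which joined all annotated exons of a gene, came from GENCODE M21. Of 8 members, 4 share exon bases with another gene model. Members and lists were chosen with earlier results of these data known. Text names the 8 members, Drd2, Adora2a and Drd1, up to 4 called genes of each pathway list or otherwise the 2 with the largest mean, and the 2 genes most correlated with each member, skipping predicted genes. Some genes that this rule names are not reported here. Marker lists not described above gave, against the input and the unbound RNA, 5 of 6 and 4 of 5 GABA interneuron, 3 of 3 and 2 of 2 oligodendrocyte precursor, 5 of 5 and 3 of 3 microglial, 1 of 1 and 1 of 1 endothelial and mural, and 2 of 3 and 3 of 3 ependymal and choroid plexus genes called lower. Of all genes, 11.8% and 9.85% were called lower. In the IP libraries the 6 microglial genes summed to 2.26 to 6.97 CPM, and the 5 endothelial and mural genes to 0.84 to 2.72 CPM. Genes this low could pass the limit of 1 CPM on the reference alone and then had to be lower.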

Additional observations from a re-analysis of the deposited data

How the results depend on the processing

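Grik3 was called higher and kept its sign in both ratios under every alternative run, and of all member ratios under the alternatives, 62 of 62 against the input and 67 of 68 against the unbound RNA kept their sign; the exception was Neto1 against the unbound RNA with libraries scaled by size alone, at -0.07. The number of members called lower against the input was 2 with 0.1 CPM added and 0 with 5 CPM added or with a mean of at least 5 CPM, which removes Grik1 from the genes measured; it ran from 1 to 2 when single libraries were left out. Against the unbound RNA it was 0 with 5 CPM added or a mean of at least 5 CPM, and with the input as reference the member called lower was Grik4, since Grik1 was then under the limit. Every cocaine IP library held Grik4 under 1 CPM, so Grik4 passed that limit only through the input and had to be lower. Members called higher against the unbound RNA ran from 1 to 2 over the libraries left out, and were 2 without cocaine IP 1. Of all genes, those called lower against the input numbered 798 in place of 1521 with 5 CPM added and 677 when averaging 5 CPM or more; against the unbound RNA they numbered 769 and 567 in place of 1247.

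No cocaine difference of a member was called by edgeR or DESeq2 under any setting, and 98 of 122 values kept their sign. The replicate block, which pairs the libraries by number, gave -0.057 for Grik2 and -0.014 for Grid1, and the same 6 libraries without it -0.036 and -0.039, each opposite in sign to the fit of all 8; the block changed no call. Lane as a covariate gave -0.020 for Grik2, 0.14 for Neto1 and -0.32 for Grid1, and lane 6 only gave -0.025, 0.13 and -0.32. Leaving out both libraries numbered 1 gave 0.10 for Neto1 and -0.12 for Grid1. With single libraries left out, the difference of Grik1 ran from -0.71 to 1.10 over the 4 of 8 fits in which it passed the low-count filter. Over all 8 fits it ran from 0.02 to 0.25 for Grik2, from -0.20 to 0.057 for Grik3, from -1.10 to -0.44 for Grik4, from -0.43 to 0.25 for Grik5, from -0.075 to 0.077 for Neto1, from 0.15 to 0.39 for Neto2 and from -0.25 to 0.26 for Grid1. The cause of these shifts was not tested. Unadjusted edgeR p were 0.0244 for Grik4 without saline IP 2 and 0.0356 for Neto2 without cocaine IP 1. Depth limits Grik1 and Grik4, with 1 to 40 reads in each IP library.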
